A study of Mus musculus with 2 samples.

Results

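The 9 genes described here encode the kinases and mediators of the meiotic DNA damage response: the apical kinases Atm and Atr, the mediators Topbp1, Mdc1 and Brca1, the histone variant H2afx, the axis-remodelling ATPase Trip13 and the effector kinases Chek1 and Chek2. They were taken by symbol from the rows of the deposited matrix, and all 9 were found among 51868 rows, of which 50686 are genes and 1182 are repeat sequences. The matrix holds single-cell RNA of whole testis from 2 untreated wild-type mice of the strain C57Bl/6J Crl at 8 weeks of age, with 1 droplet library per mouse and no treated or mutant group. Mouse 1 contributed 1237 cells with 27450497 UMIs (unique molecular identifiers, each standing for a captured RNA molecule) and mouse 2 contributed 1315 cells with 30302332 UMIs. No barcode was shared between the libraries.

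During meiosis, programmed DNA double-strand breaks activate ATM, and ATR later takes over along chromosome axes that remain unpaired. In the male, this includes most of the X and Y chromosomes. There, ATR with its activator TOPBP1 phosphorylates the histone variant H2AX, MDC1 spreads the mark into chromatin loops, and the sex chromosomes are silenced for the rest of the spermatocyte stages. CHK1 and CHK2 relay the signal of ATR and ATM to the cell cycle machinery.

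Cells were placed in classes by clustering without the 9 genes and 59 further pathway genes, and by markers of each class. The classes, all of them "-like" cells named from markers only, were 163 early spermatocytes (8 of 14 early markers at 1.5 times the level of all cells or more), 527 pachytene or later spermatocytes (8 of 14), 447 round spermatids, 707 elongating or condensing spermatids, 7 spermatogonia, 7 Sertoli cells and 5 Leydig cells. A cluster of 689 cells, led by Ssxb1 and Ssxb2, had none of 12 round spermatid markers and none of 14 pachytene or later markers at that level. It is given here as the unnamed cluster. In an ordering of 2533 germ cells it lay between pachytene or later spermatocytes and round spermatids, with median ranks at 16.9%, 40.9% and 63.3% of the way. Median UMI counts per cell ranged from 18803 to 21892 in spermatocytes, round spermatids and the unnamed cluster, and were 13220 in elongating or condensing spermatids. Levels are given as CPM, the UMIs of a gene divided by all UMIs of the class in that mouse and scaled to counts per 1000000, with exact 95% Poisson intervals that cover counting error only. Summed round spermatid markers stood at 2509 and 2898 CPM in the unnamed cluster, 300 to 409 CPM in both spermatocyte classes and 5056 and 5149 CPM in round spermatids. Summed pachytene or later markers stood at 12710 and 12408 CPM in the unnamed cluster. They were 15671 and 16176 CPM in pachytene or later spermatocytes and 10020 and 10168 CPM in round spermatids. Free RNA in droplets can also give UMIs to cells that do not express a gene.

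Across all cells the genes were detected to very different depths. H2afx received 3242 UMIs and Atr 2746, Chek1, Mdc1 and Topbp1 received 514, 427 and 405, Trip13 received 289, Brca1 214 and Atm 136. Only 9 UMIs were counted for Chek2, in 9 of 2552 cells, so its level could be described in no class with precision. All 9 genes are autosomal, and 5 of them (Atm, Atr, Topbp1, H2afx and Chek1) lie on chromosome 9.

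Promoters of 4 genes are shown because they cover both patterns described below. Atr, Mdc1 and Chek2 had their highest level in early spermatocytes, though for Chek2 this rests on 6 UMIs there. Brca1 had its highest level later, with round spermatids and early spermatocytes overlapping between the mice. Each is the part of the 250 bases before the RefSeq start (build GRCm38.p6) that holds no exon of a protein-coding gene, written 5′ to 3′ on the strand of the gene. Capitals mark matches, on either strand, to the E2F motif TTTCCCGC or to CCAAT, the core bound by NF-Y. The regions are chr9:95857347-95857596 for Atr (plus strand), chr17:35841248-35841497 for Mdc1 (plus), chr5:110839778-110839978 for Chek2 (plus) and chr11:101551956-101552148 for Brca1 (minus).
Atr: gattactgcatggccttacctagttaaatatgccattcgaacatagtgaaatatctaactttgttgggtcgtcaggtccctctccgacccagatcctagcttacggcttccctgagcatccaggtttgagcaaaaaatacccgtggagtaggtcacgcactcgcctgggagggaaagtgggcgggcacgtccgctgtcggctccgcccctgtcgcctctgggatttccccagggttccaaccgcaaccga
Mdc1: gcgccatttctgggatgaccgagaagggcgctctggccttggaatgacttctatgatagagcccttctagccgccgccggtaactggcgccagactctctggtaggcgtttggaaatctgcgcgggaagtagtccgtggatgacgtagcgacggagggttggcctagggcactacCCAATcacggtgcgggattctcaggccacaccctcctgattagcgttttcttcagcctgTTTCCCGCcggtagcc
Chek2: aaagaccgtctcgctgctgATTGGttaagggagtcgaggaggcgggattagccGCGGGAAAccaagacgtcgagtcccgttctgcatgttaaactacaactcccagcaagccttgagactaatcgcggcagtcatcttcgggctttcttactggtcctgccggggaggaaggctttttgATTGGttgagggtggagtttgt
Brca1: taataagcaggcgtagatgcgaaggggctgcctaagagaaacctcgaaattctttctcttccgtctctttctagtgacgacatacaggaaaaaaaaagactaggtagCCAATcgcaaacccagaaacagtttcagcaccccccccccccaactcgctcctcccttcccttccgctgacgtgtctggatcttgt
The E2F motif was found in 2 of the 8 genes with a listed promoter, beginning 16 bases before the start of Mdc1 and, on the other strand, 152 bases before that of Chek2. It occurred in 0.895% of 32851 mouse promoters of the same length. CCAAT was found in 4 of 8 genes (Atm, Mdc1, Brca1 and Chek2), beside 33.8% of all promoters. No match was found in the 8 windows for a second E2F form (TTTGGCGC), the cyclic AMP response element (TGACGTCA), the NRF1 palindrome, MYB (CAACTG) or STRA8 (CNCCTCAG), which occurred in 0.417%, 1.55%, 0.782%, 11.1% and 6.42% of all promoters. GC content ranged from 51.2% for Brca1 to 73.2% for Topbp1, beside a median of 52.4% over all promoters, and the windows held 12 to 33 CpG dinucleotides beside a median of 6. H2afx was not matched in the promoter table.

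Across the 5 germ cell groups with at least 20 cells in each mouse, the genes fell into a set highest in early spermatocytes and a set highest after the pachytene stage. In the average of the mice, 7 of 9 genes were highest in early spermatocytes, and all of these but Atm were highest there in each mouse, though for Chek2 this rests on 2 and 4 UMIs with intervals that overlap those of other groups. Chek1 was highest in round spermatids and Brca1 in the unnamed cluster, in each mouse. For Brca1 this rank was not resolved from round spermatids. The unnamed cluster had 5.78 and 7.20 CPM and round spermatids 3.98 and 6.93 CPM, with intervals that overlap in each mouse. In mouse 1 the interval of Brca1 in early spermatocytes, from 5 UMIs, also overlapped that of the unnamed cluster. The 7 spermatogonia were left out of this ranking. Their cluster passed the marker threshold for 8 of 12 spermatogonium markers and for 9 of 14 early spermatocyte markers. In it, summed early spermatocyte markers stood at 2501 and 3458 CPM, and summed spermatogonium markers at 1234 and 1160 CPM. In early spermatocytes these sums were 6636 and 5189 CPM, and 54.5 and 45.0 CPM. Whether the 7 cells were at the entry into meiosis was not tested. In these 7 cells Atm (162 and 159 CPM) and Trip13 (130 and 68.3 CPM) were above early spermatocytes in each mouse, on 12 and 7 UMIs. How many of all genes are highest in each group was not counted.

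**Figure D1:**
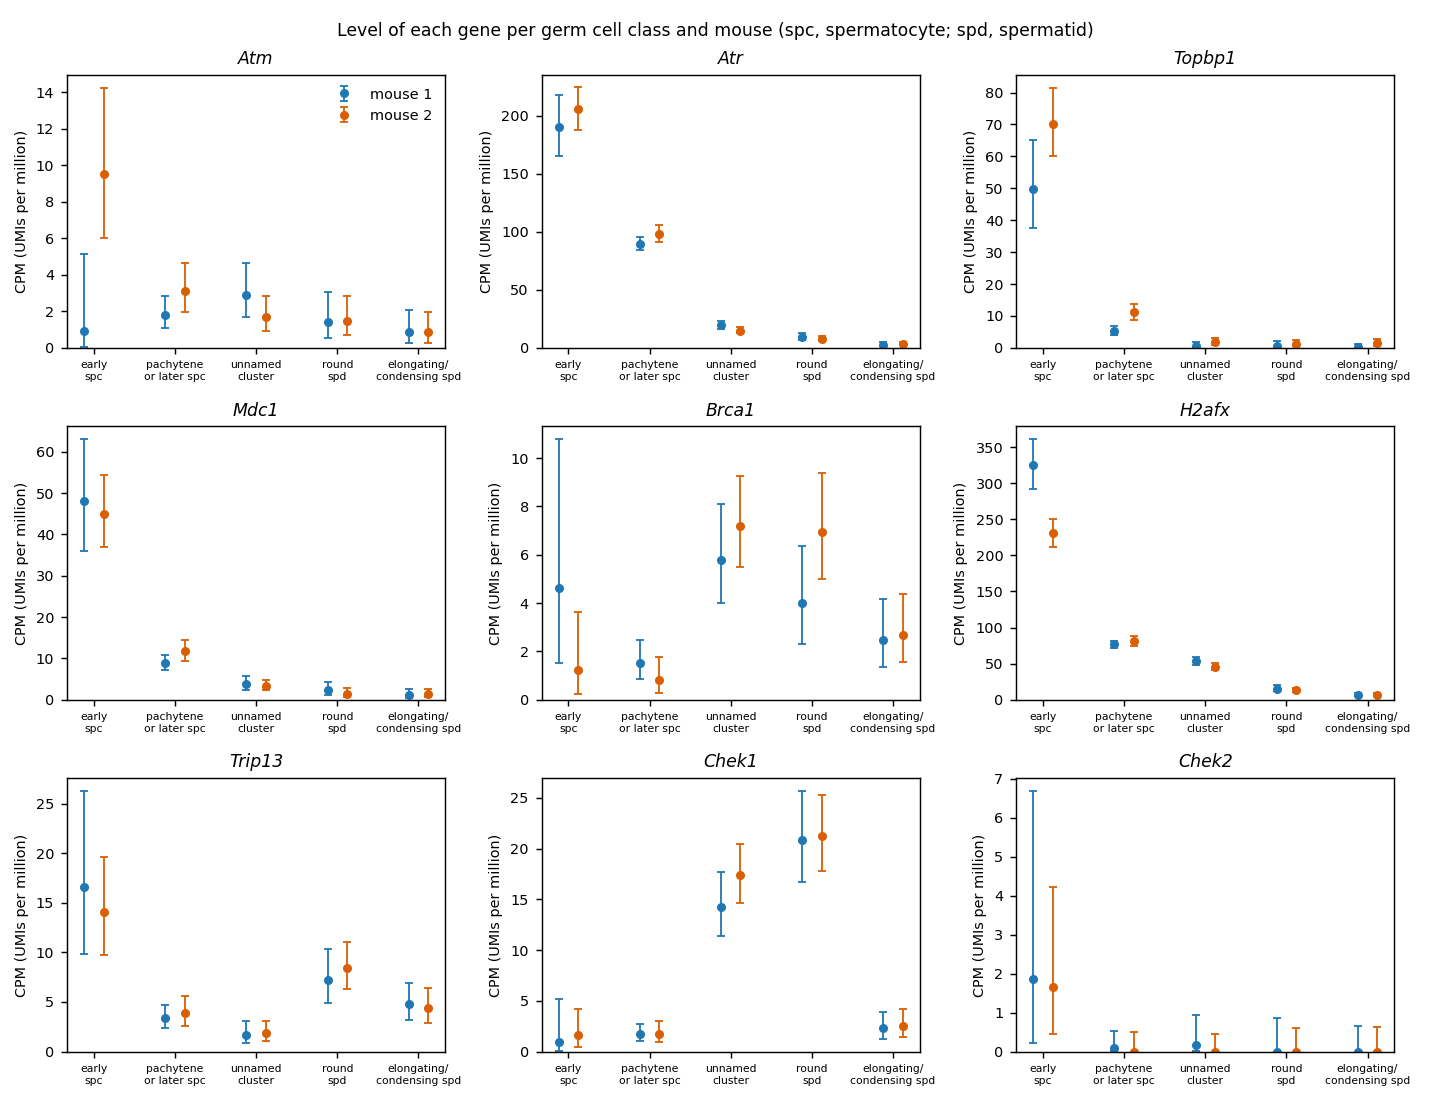
Level of each of the 9 genes in 5 germ cell classes, in CPM on a linear axis that starts at 0 and differs between panels. Points are single mice (52 to 380 cells each) and bars are exact 95% Poisson intervals. Atr fell from 190 and 206 CPM in early spermatocytes to 2.82 and 3.37 CPM in elongating or condensing spermatids, while Chek1 was highest in round spermatids at 20.9 and 21.3 CPM.

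Atr encodes the kinase that acts on unpaired axes (GRCm38, chr9:95857597-95951781, plus strand). Its level was 190 CPM in mouse 1 and 206 CPM in mouse 2 in early spermatocytes, 89.8 and 98.5 CPM in pachytene or later spermatocytes, 19.4 and 14.9 CPM in the unnamed cluster, 9.14 and 7.92 CPM in round spermatids and 2.82 and 3.37 CPM in elongating or condensing spermatids. The values of the mice did not overlap between any neighbouring groups. At least 1 Atr UMI was found in 94.5% of early spermatocytes and 4.81% of elongating or condensing spermatids, at median depths of 19596 and 13220 UMIs. With every cell thinned to 5000 UMIs, these shares were 63.2% and 2.26%. A gene on the opposite strand, the antisense RNA 1700065D16Rik, overlaps exons of Atr outside its last 2 kilobases and received 2786 UMIs. That gene was highest in pachytene or later spermatocytes, at 106 and 77.1 CPM, against 48.1 and 52.9 CPM in early spermatocytes. The authors report little mapping antisense to exons, so the strand was distinguished in mapping. They do not state whether such reads were left out of the counts. A share of reads between both genes was not tested.

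Atm encodes the kinase that responds first to the breaks (chr9:53439149-53536740, minus strand). In early spermatocytes it was counted once in mouse 1 (0.924 CPM) and 23 times in mouse 2 (9.50 CPM), and these intervals did not overlap. In pachytene or later spermatocytes its level was 1.82 and 3.09 CPM, in the unnamed cluster 2.89 and 1.68 CPM, in round spermatids 1.41 and 1.49 CPM and in elongating or condensing spermatids 0.883 and 0.842 CPM. Beyond the gap between the mice in early spermatocytes, the classes lay close together. Summed Sertoli cell markers in early spermatocytes also differed between the mice, at 173 CPM in mouse 1 and 59.1 CPM in mouse 2 with 11 of 15 markers detected in each, against 20.3 to 54.6 CPM in the 4 other groups. Their part in the differences between the mice was not tested.

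TOPBP1 activates ATR and MDC1 binds phosphorylated H2AX. Topbp1 (chr9:103305215-103350428, plus strand) stood at 49.9 and 70.2 CPM in early spermatocytes, 5.17 and 11.1 CPM in pachytene or later spermatocytes, and 0.353 to 1.80 CPM in the 3 later groups. Mdc1 (chr17:35841515-35859670, plus strand) stood at 48.1 and 45.0 CPM in early spermatocytes, 8.91 and 11.8 CPM in pachytene or later spermatocytes, 3.74 and 3.36 CPM in the unnamed cluster, and 1.24 to 2.34 CPM in spermatids. For both genes the early spermatocytes of each mouse were above every other group. The interval of Topbp1 in pachytene or later spermatocytes did not overlap between the mice.

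H2afx encodes the histone variant that carries the mark (chr9:44334694-44336077, plus strand). Its level was 325 and 230 CPM in early spermatocytes, 76.5 and 81.2 CPM in pachytene or later spermatocytes, 53.4 and 46.0 CPM in the unnamed cluster, 15.5 and 13.5 CPM in round spermatids and 6.53 and 6.40 CPM in elongating or condensing spermatids. The order of the groups was the same in both mice, and neighbouring groups did not overlap. The gap between the mice in early spermatocytes exceeded their counting intervals. Of 45 pairs of values for 9 genes in 5 groups, 3 had intervals that did not overlap between the mice. These were H2afx and Atm in early spermatocytes and Topbp1 in pachytene or later spermatocytes. The share over all features was not counted. The pairs of Chek2, with 0 to 4 UMIs in a mouse, could hardly separate.

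Trip13 encodes the ATPase that removes HORMA domain proteins from paired axes (chr13:73911347-73937784, minus strand). Among the 5 groups it was highest in early spermatocytes, with 16.6 and 14.04 CPM. It stood at 3.35 and 3.89 CPM in pachytene or later spermatocytes and 1.70 and 1.92 CPM in the unnamed cluster. It was higher again in round spermatids, at 7.26 and 8.42 CPM, and stood at 4.77 and 4.38 CPM in elongating or condensing spermatids. The rise after the unnamed cluster was present in each mouse, without overlap. Within the elongating or condensing spermatids, the smaller of 2 clusters (196 cells) had 10.0 and 7.12 CPM and the larger one (511 cells) had 1.68 and 1.92 CPM.

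Brca1 encodes a ubiquitin ligase of recombination and unpaired axes (chr11:101488764-101551955, minus strand). It was counted 5 and 3 times in early spermatocytes (4.62 and 1.24 CPM), 16 and 6 times in pachytene or later spermatocytes (1.53 and 0.805 CPM), 34 and 60 times in the unnamed cluster (5.78 and 7.20 CPM), 17 and 42 times in round spermatids (3.98 and 6.93 CPM) and 14 and 16 times in elongating or condensing spermatids (2.47 and 2.69 CPM). Pachytene or later spermatocytes were below the unnamed cluster and both spermatid classes in each mouse. The early spermatocytes overlapped with spermatids between the mice and rest on 8 UMIs.

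Chek1 encodes the effector kinase downstream of ATR (chr9:36708482-36727065, minus strand). It was low in spermatocytes, with 0.924 and 1.65 CPM in early and 1.72 and 1.74 CPM in pachytene or later spermatocytes. It then stood at 14.3 and 17.4 CPM in the unnamed cluster, 20.9 and 21.3 CPM in round spermatids, and 2.30 and 2.53 CPM in elongating or condensing spermatids. The share of cells with a Chek1 UMI was 5.50% in pachytene or later spermatocytes and 38.0% in round spermatids, at median depths of 20773 and 21892 UMIs. Thinned to 5000 UMIs, the shares were 0.380% and 9.40%. Atr and Chek1, its downstream kinase, had their highest RNA levels in different classes. Chek2, the effector of ATM (chr5:110839979-110874145, plus strand), was counted 6 times in early spermatocytes, once each in pachytene or later spermatocytes, the unnamed cluster and spermatogonia, and not at all in 447 round and 707 elongating or condensing spermatids, where 3 counts of the total would allow 0.291 and 0.259 CPM.

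The ordering of germ cells along a diffusion pseudotime, cut into 20 bins, placed these levels in sequence. In CPM, Atr, Topbp1, Mdc1, H2afx and Trip13 had their highest bin at the start in both mice, as did Chek2 with 2 and 3 UMIs there. Bin 1 held 127 cells, all of them early spermatocytes. From bin 1 to bin 2, Topbp1 went from 54.6 to 14.5 CPM in mouse 1 and from 81.6 to 32.1 CPM in mouse 2, and H2afx from 369 to 99.2 CPM and from 292 to 113 CPM. Per cell the order differed for some genes. Atr had 361 and 414 UMIs per 100 cells in bin 1 and 428 and 505 in bin 2, higher in both mice, and cells of bin 2 also held more UMIs in all. Trip13 in mouse 2 had 27.7 UMIs per 100 cells in bin 1, 28.8 in bin 2 and 28.0 over bins 14 and 15. In CPM, Atr declined in steps, from 129 and 140 CPM in bin 2 to 80.6 and 86.4 CPM over bins 3 to 6 and 30.6 and 30.2 CPM in bin 7. With another starting cell, Atr in bin 7 stood at 16.5 CPM (21 UMIs) in mouse 1 and 30.3 CPM in mouse 2.

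Chek1 and Brca1 were higher in bin 7 than over bins 3 to 6, where Atr was higher. Chek1 stood at 2.46 and 1.96 CPM over bins 3 to 6, 9.79 and 8.77 CPM in bin 7 and 26.8 and 29.5 CPM at its highest in bin 13. Over bins 16 to 20 it was back at 2.10 and 1.75 CPM. Brca1 stood at 1.92 and 1.63 CPM over bins 3 to 6, at 7.34 and 6.82 CPM in bin 7 and at 2.31 and 2.72 CPM over bins 16 to 20, with 0 UMIs in bin 10 of mouse 1. Trip13 had a second high over bins 14 and 15, at 15.6 CPM from 39 UMIs in mouse 1 and 11.3 CPM from 42 UMIs in mouse 2, around the passage from round to elongating spermatids. With 10 bins, the highest Trip13 bin in mouse 1 was bin 8, at 9.64 CPM beside 9.48 CPM in bin 1. Atm had its highest bin at 8 in mouse 1, from 6 UMIs, and at 1 in mouse 2, from 16 UMIs.

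The X-linked share of gene UMIs, over 2611 X-linked genes, describes the RNA present from a chromosome on which the pathway acts. This share does not separate new transcription from stored or free RNA. It was 0.237% and 0.143% in early spermatocytes, 0.148% and 0.141% in pachytene or later spermatocytes, 0.773% and 0.832% in the unnamed cluster, 1.33% and 1.36% in round spermatids and 1.77% and 1.78% in elongating or condensing spermatids. In the 7 spermatogonia it was 1.88% and 2.16%. It was lower in both spermatocyte classes than in the later groups. Early spermatocytes, in which Atr, H2afx, Topbp1 and Mdc1 were highest, were not below pachytene or later spermatocytes, and bin 1 of the ordering had 0.271% and 0.162% against 0.1254% and 0.105% in bin 2. The share was higher in the unnamed cluster, where Chek1 and Brca1 were also higher than in spermatocytes. This is a description over cell classes and not a test of a relation.

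**Figure D2:**
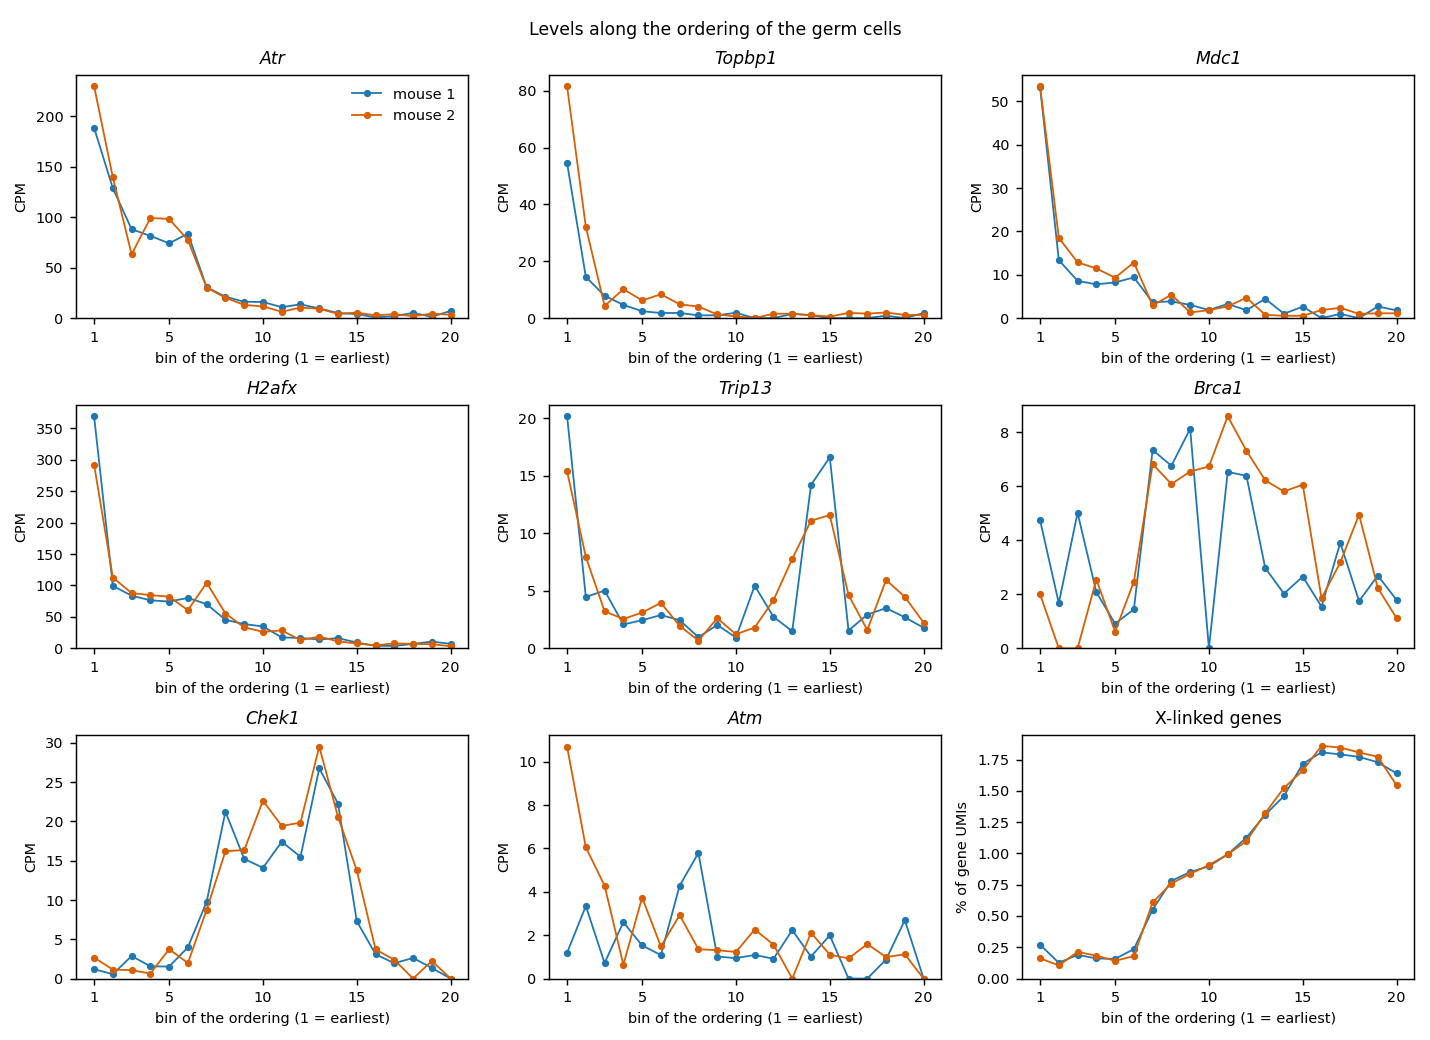
Levels of 8 genes (CPM) and the X-linked share of gene UMIs (percent) along 20 bins of the germ cell ordering, with 1 line per mouse and axes that start at 0. Chek2 is left out because of its 9 UMIs. Atr, Topbp1, Mdc1 and H2afx are highest in bin 1, Chek1 is highest in bin 13 at 26.8 and 29.5 CPM, and Trip13 is high in bin 1 and again over bins 14 and 15.

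Differences between classes were tested on UMIs summed per mouse and class by the quasi-likelihood test of edgeR with TMM scaling and Benjamini-Hochberg adjustment over 14994 genes and repeats. Of the 9 genes, 8 passed the filter on low counts, and Chek2 did not. The unnamed cluster of 689 cells was a group of the fit but stood on neither side of the comparisons below, except in the alternatives that place it. The log2 fold changes below are on the TMM scale, which multiplies each UMI total by a factor, so they differ from the ratios of the CPM above.

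Between early and pachytene or later spermatocytes, 5 of 8 genes were higher in early spermatocytes, where 23.4% of all features tested were higher, 25% were lower and 48.3% passed in either direction. Topbp1 was higher by 2.68 ± 0.32 (log2 fold change ± SE, edgeR adjusted p = 8.0e-07), Mdc1 by 1.89 ± 0.22 (adjusted p = 6.1e-07), Trip13 by 1.78 ± 0.30 (adjusted p = 4.0e-05), H2afx by 1.505 ± 0.148 (adjusted p = 5.3e-08) and Atr by 0.80 ± 0.15 (adjusted p = 1.9e-04). Scaled to the number of cells in place of UMIs, Atr differed by 0.41 and did not pass (adjusted p = 0.0539). Atm differed by 1.19 ± 0.53 (adjusted p = 0.0724). With the mouse as a block, Atm passed (adjusted p = 0.0224), but its value was -1.35 in mouse 1 alone and 1.44 in mouse 2 alone. Brca1 (0.65 ± 0.68) and Chek1 (-0.54 ± 0.58) did not pass. The median of the 8 genes was 1.35, beside -0.02 over all features.

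From pachytene or later spermatocytes to round spermatids, the genes moved in both directions. Higher in spermatocytes were 4 of 8, beside 37.3% of all features: Atr by 3.15 ± 0.19 (adjusted p = 3.0e-12), Topbp1 by 2.69 ± 0.54 (adjusted p = 1.5e-04), Mdc1 by 2.14 ± 0.32 (adjusted p = 3.6e-06) and H2afx by 2.13 ± 0.17 (adjusted p = 3.7e-10). Higher in round spermatids were 3 of 8, beside 36.9% of all features, with log2 fold changes of -3.90 ± 0.26 for Chek1 (adjusted p = 2.0e-11), -2.49 ± 0.42 for Brca1 (adjusted p = 1.7e-05) and -1.44 ± 0.27 for Trip13 (adjusted p = 6.3e-05). In all, 7 of 8 genes passed in either direction, beside 74.3% of all features. The call for Trip13 was lost when counts were scaled to cell numbers (-0.57, adjusted p = 0.0688) or when the unnamed cluster was counted with round spermatids (-0.49, adjusted p = 0.109). Atm differed by 0.39 ± 0.58 and did not pass.

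Between round and elongating or condensing spermatids, 1 of 8 genes was higher in round spermatids and none was lower, beside 26% and 27.1% of all features and 53.1% in either direction. This was Chek1, by 2.26 ± 0.27 (adjusted p = 5.0e-07). Atr differed by 0.58 ± 0.27 (adjusted p = 0.0808), and the other 6 genes had log2 fold changes between -0.82 and 0.29. This comparison depends on the scaling. With UMI totals and no TMM factors, an alternative added after the data were seen, the median of all features rose to 0.88. Of all 14994 features, 7512 were then higher and 2181 lower, and 5 of the 8 genes were higher in round spermatids. These were Chek1, Atr (1.44, adjusted p = 1.0e-04), H2afx (1.15, adjusted p = 3.1e-04), Brca1 (1.11, adjusted p = 0.0235) and Trip13 (0.79, adjusted p = 0.0167).

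With both spermatocyte classes set against both spermatid classes, 4 of 8 genes were higher in spermatocytes and 3 were lower, beside 39.8% and 43.2% of all features and 83% in either direction. Atr was higher by 3.84 ± 0.14 (adjusted p = 6.2e-16), Topbp1 by 3.62 ± 0.36 (adjusted p = 7.8e-09), H2afx by 3.03 ± 0.13 (adjusted p = 4.2e-15) and Mdc1 by 2.92 ± 0.23 (adjusted p = 1.4e-10). Lower were Chek1, at -3.04 ± 0.29 (adjusted p = 3.4e-09), and Brca1, at -2.04 ± 0.36 (adjusted p = 2.6e-05). For Brca1, scaling to cell numbers gave -0.70 (adjusted p = 0.0987). Trip13 had -0.59 ± 0.20 (adjusted p = 0.0102), a direction that turned to 0.29 without TMM factors (adjusted p = 0.174) and to 0.76 when scaled to cell numbers (adjusted p = 0.0025). Atm differed by 0.93 ± 0.45 (adjusted p = 0.0589) and passed with the mouse as a block (adjusted p = 0.0157), with values of -0.69 in mouse 1 and 1.39 in mouse 2.

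**Figure D3:**
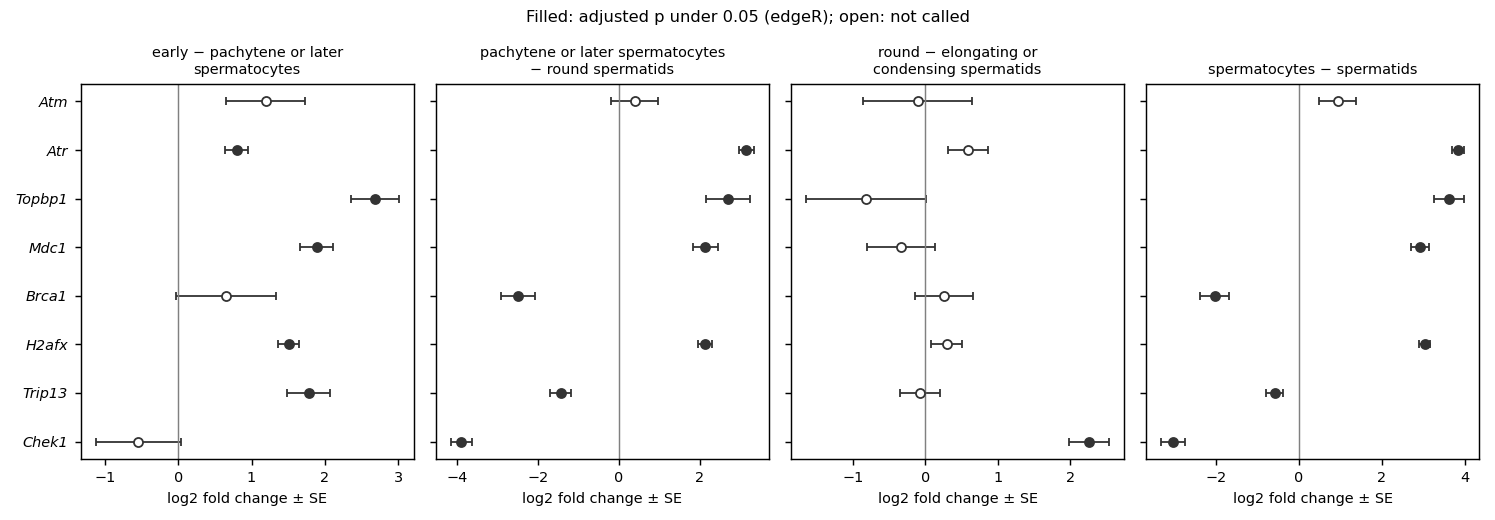
Log2 fold changes after TMM scaling (points, with bars of 1 SE) of the 8 genes tested in 4 comparisons, first class minus second, from edgeR fits on 10 sums (5 groups in 2 mice). Filled points have an adjusted p under 0.05. Atr, Topbp1, Mdc1 and H2afx lie above 0 and Chek1 and Brca1 below 0 in spermatocytes against spermatids, and only Chek1 is filled in round against elongating or condensing spermatids.

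The 59 other genes of the pathway, listed by role, were followed in the same fits, and 51 passed the filter. In spermatocytes against spermatids, 31 were higher, 15 were lower and 5 did not pass, with a median log2 fold change of 1.03 beside -0.07 over all features, of which 39.8% were higher and 43.2% lower. For early against pachytene or later spermatocytes the counts were 25, 12 and 14 (23.4% of all features higher and 25% lower), for pachytene or later spermatocytes against round spermatids 25, 17 and 9 (37.3% and 36.9%), and for round against elongating or condensing spermatids 13, 10 and 28 (26% and 27.1%). The roles below hold 2 to 10 tested genes each and were not tested as groups. Their counts in spermatocytes against spermatids are to be read beside the 39.8% higher and 43.2% lower of all features. They are given with TMM scaling only. The median of all features in this comparison was 0.80 without TMM factors and 1.26 with cell numbers as scaling. Whether lower calls with a small fold change hold in those scalings was not tested.

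Of the genes that load ATR and its clamp, 8 of 10 tested were higher in spermatocytes and none was lower. Etaa1, an activator of ATR, was higher by 3.85 ± 0.47, and Rad1, a clamp subunit, by 3.40 ± 0.36. On the TMM scale, spermatids had a mean of 0.505 CPM for Etaa1 and 0.688 CPM for Rad1. Elongating or condensing spermatids had 0.160 CPM for Etaa1. At such low levels the size of both fold changes is uncertain. All 4 genes of the MRN complex and ATM activation were higher in spermatocytes, with Rad50 at 3.96 ± 0.18 and the acetyltransferase Kat5 at 2.53 ± 0.14. In early against pachytene or later spermatocytes, however, 3 of these 4 were lower, while 6 of the 10 genes of ATR loading were higher and 3 lower. Of the axis genes, 5 of 6 were higher in spermatocytes, among them Hormad1, a substrate of TRIP13, by 3.18 ± 0.16, and Rec114, a factor of break formation, was lower at -2.83 ± 0.25.

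Among the genes of ubiquitin signalling on marked chromatin, 5 of 10 were higher and 4 lower in spermatocytes, close to the shares over all features. Uimc1, a ubiquitin reader of the BRCA1-A complex, was higher by 3.18 ± 0.27. Of the partners of BRCA1, 4 of 5 were higher in spermatocytes and 1 (Brip1) was lower, as Brca1 itself was. The smallest of the higher values was that of Brca2, at 0.48 ± 0.12. Bard1, which forms the ligase with BRCA1, was higher by 4.16 ± 0.33, and Palb2, which joins it to BRCA2, by 2.38 ± 0.37. Both stood low in spermatids, at means of 0.623 and 0.790 CPM on the TMM scale, so these sizes are uncertain. Between pachytene or later spermatocytes and round spermatids, 3 of 5 partners were higher and 2 lower, beside 37.3% and 36.9% of all features. The lower ones, Brip1 at -2.42 ± 0.50 and Brca2 at -1.12 ± 0.15, changed in the direction of Brca1. The difference between the partners and Brca1 was not tested.

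Of 3 genes of CHK1 activation, Timeless and Clspn were higher and Tipin, the partner of Timeless, was lower at -3.10 ± 0.14. On the TMM scale, Clspn stood at 11.2 CPM in early spermatocytes only. It was 1.10 CPM in pachytene or later spermatocytes and 1.04 CPM in round spermatids, which did not differ (edgeR adjusted p = 0.887). Timeless was counted at 12.9 and 19.4 CPM in early and 6.22 and 6.04 CPM in pachytene or later spermatocytes, at 0 UMIs in round spermatids and at 0.177 and 0.505 CPM (1 and 3 UMIs) in elongating or condensing spermatids, so its fitted fold change is not given as a size. Of 6 checkpoint targets, 1 (Trp53) was higher and 4 were lower in spermatocytes. These included the phosphatase Cdc25c at -2.75 ± 0.23 and the cell cycle inhibitor Cdkn1a at -2.53 ± 0.39. Cdkn1a was high in elongating or condensing spermatids only, at 18.6 CPM on the TMM scale, beside 1.39 CPM in round spermatids and 1.80 CPM in early spermatocytes. Of 5 genes for H2AX phosphatases or the kinase of H2AX Tyr142, 1 (Baz1b, the kinase) was higher and 4 were lower. Among the lower were the phosphatases Eya4 at -4.95 ± 0.16 and Ppm1d at -2.65 ± 0.46. Baz1b was high in early spermatocytes, at 22.0 CPM on the TMM scale. It stood at 2.90 CPM in pachytene or later spermatocytes and 1.74 CPM in round spermatids, and did not pass between these (edgeR adjusted p = 0.225). Of 2 related kinases, Smg1 was higher by 1.03 ± 0.18 and Prkdc did not pass.

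**Figure D4:**
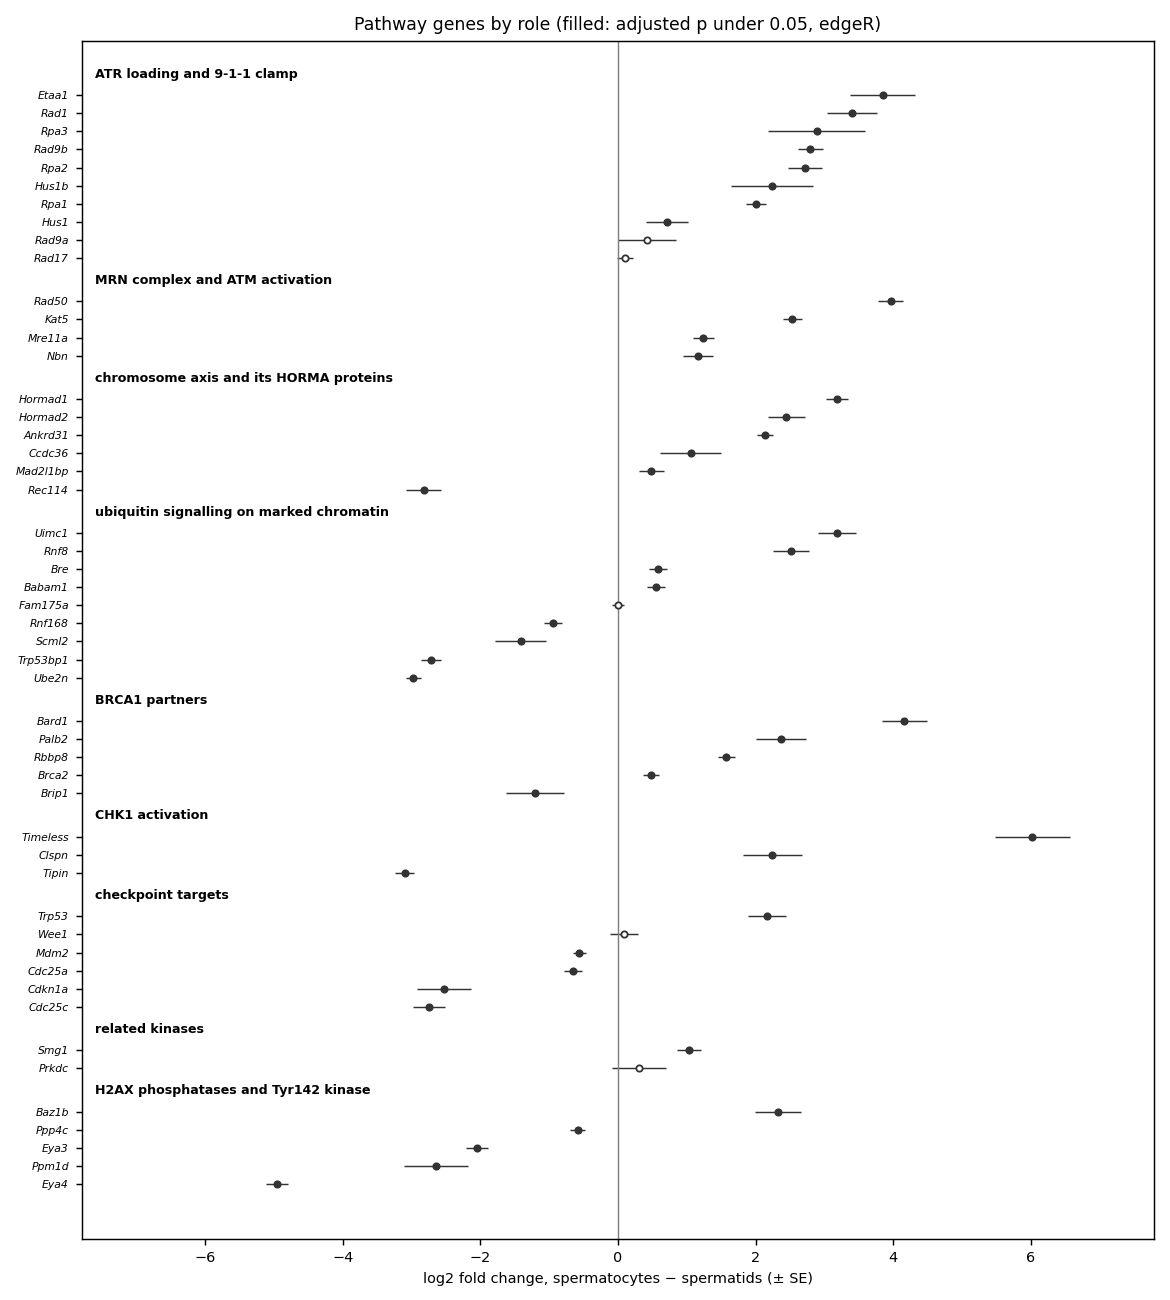
Log2 fold changes after TMM scaling (points, with bars of 1 SE) in spermatocytes minus spermatids of pathway genes tested, sorted within 9 roles. Filled points have an adjusted p under 0.05. Every gene of the MRN group lies above 0. In the group of H2AX phosphatases and Tyr142 kinase, 4 of 5 genes lie below 0, with Eya4 lowest at -4.95. The point of Timeless rests on 0 UMIs in round spermatids, so its position depends on the fit.

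Genes whose level followed each of the 9 along the ordering were taken from 8017 rows with at least 500 UMIs, by Pearson's r of log2(CPM + 10) over 40 sums (20 bins in 2 mice). The sums of a mouse share a library and neighbouring bins share a trend, so r describes likeness only. Atr was most like Topaz1, a germ cell gene (r = 0.984), Topbp1 was most like Tm2d3 (0.963), Mdc1 like Pcgf5 (0.966), H2afx like Fam208a (0.977) and Chek1 like Adat2 (0.965). The next rows were Rps3 and Ndufc2 for Atr, Rnps1 and Slc24a5 for Topbp1, Lsm6 and Stambp for Mdc1, Pnn and Fam98b for H2afx, and Cpvl and Nup160 for Chek1. Closest matches were weaker for Trip13 (Ttc14, 0.795, then Ckap5 and Rnf2), Brca1 (Cdk2ap1, 0.754, then Etfbkmt and Fam185a) and Atm (1700113A16Rik, 0.698, then Gm15500 and Spc24), and the match of Chek2 with Gml (0.932, then Ndufa1 and Ccdc61) rests on 9 UMIs. Among the 9 genes, r was 0.939 between Atr and H2afx, 0.929 between Topbp1 and Mdc1, 0.632 between Brca1 and Chek1 and -0.354 between Atr and Chek1.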

How the data were processed

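Single-cell RNA was captured with the Chromium 3′ v2 chemistry from whole testis, with a separate library for each animal. For demultiplexing and counting, the authors used Cell Ranger 2.0.0 and bcl2fastq 2.17.1.14 against a repeat-masked GRCm38 to which repeat sequences had been added, and discarded part of the reads of mouse 2 to equal the mean reads per cell. The deposited values are unnormalized UMI counts for each gene in each cell. All 2552 cells were kept, with medians of 17871 and 19184 UMIs per cell. Cells were mapped to mice by the number in the barcode, as in the titles.

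For clustering, each cell was scaled to the median UMI total, log2 transformed and assigned by K-means (K = 9, 10 principal components, seed 42) without the 9 genes and the 59 pathway genes. A class needed at least 3 markers at 1.5 times the CPM of all cells. Scrublet called 25 doublets, which were kept. UMIs were summed per mouse and germ cell group (10 sums, 5 residual degrees of freedom) and tested with edgeR 4.0.16 (R 4.3.3), with all groups in 1 fit, filterByExpr, TMM and a two-sided threshold of 0.05 on the adjusted p. SE is the size of the log2 fold change divided by the square root of F. On simulated data, edgeR recovered 130, 156, 150 and 175 of 200 genes changed 4-fold among 14994, in the order of the comparisons above, with 2, 8, 4 and 11 false calls. The simulated sums were independent, with 1 fixed spread for all genes and the same profile in all groups apart from the 200. In the data 48.3% to 83% of features passed, so these counts do not measure error in the comparisons above. Sums with the same number come from the same mouse. Their deviations correlated at 0.0341 to 0.203 over 10 pairs of groups, so an alternative fit carried the mouse as a block. Python 3.11.15 with scanpy 1.11.5 gave the clusters, doublets and diffusion pseudotime. Gene positions were read from GENCODE (GRCm38).

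Alternatives were other scalings, DESeq2 1.42.0, no gene filter, K = 10, clustering without repeats or with all genes, no doublets, thinning, other placements of the unnamed cluster, other bins, another starting cell and each mouse alone. UMI totals without TMM factors were added after the data were seen. The genes and lists were chosen with earlier results of these data known. Named genes are all 9 and the 3 most alike rows per gene. Also named are the 2 called pathway genes per role with the largest change in spermatocytes against spermatids. Brca2, Brip1, Clspn, Trp53, Baz1b and Prkdc were named after their values were seen. A pathway gene that the rule names, which the counts include, is not reported here. The authors' cell type table and reads were not used here.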

Additional observations from a re-analysis of the deposited data

Results flagged for a closer look

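Signals above the limit of a count of 0 (3 UMIs) appeared in cells that no fit used, because these classes were too small. In 7 spermatogonium-like cells, Atm received 12 UMIs in 4 cells (161 CPM, 95% Poisson interval 83.0 to 280), with 162 CPM in mouse 1, where all 5 UMIs came from 1 of 3 cells, and 159 CPM in mouse 2, where 7 UMIs came from 3 of 4 cells, against at most 9.50 CPM in any later germ cell group of a mouse. With cells thinned to 5000 UMIs, 1 of the 7 cells had an Atm UMI. In the same cells, Trip13 received 7 UMIs in 6 cells (93.7 CPM, 37.7 to 193) and Atr received 5 UMIs in 3 cells (66.9 CPM, 21.7 to 156). In 7 Sertoli-like cells, H2afx received 5 UMIs in 3 cells (59.0 CPM, 19.1 to 138), Trip13 also received 5 UMIs in 3 cells, and Atr received 4 UMIs in 2 cells (47.2 CPM, 12.9 to 121). The spermatogonium-like cells also carried early spermatocyte markers, as given above. No test was made on the cells of either class.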

How the results depend on the processing

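Over 15 alternatives, 418 of 472 log2 fold changes of the 8 genes kept their direction and side of the threshold or, for each mouse alone, stayed within the spread between the mice, and 54 did not. The 418 include 31 values without mouse 1 and 24 without mouse 2. The spread used for these comes from the same 2 values, so the rule is met almost by construction. It does not measure agreement between the mice. Each mouse alone leaves no residual degrees of freedom and gave values without a test. Apart from Atm in 2 comparisons, the block for the mouse changed no call. With cell numbers in place of UMI totals, the median of all features became -0.40, 0.98, 1.36 and 1.26 in the 4 comparisons in the order of the report, and the share of calls that were higher 30.9%, 65.7%, 85.2% and 66.6%, against 48.3%, 50.3%, 49.0% and 48.0%. All features called higher in early against pachytene or later spermatocytes then numbered 2192 (3502 with TMM), and in round against elongating or condensing spermatids 9291 were higher (3896) and 1619 lower (4061). In that setting 5 of the 8 genes were higher in round spermatids (1 with TMM) and 1 was lower in spermatocytes against spermatids (3 with TMM). Of 14994 features, 4385 were lower in spermatocytes against spermatids (6478 with TMM). Without TMM factors the medians were 0.23, 0.42, 0.88 and 0.80, the shares 61.1%, 57.2%, 77.5% and 61.7%, 5 of the 8 genes were higher in round spermatids, and 7512 features were higher and 2181 lower there. With DESeq2's size factors 58.8% of calls in early against pachytene or later spermatocytes were higher, and with DESeq2's own test 59.1%. After thinning, only 11071 features passed the filter on low counts, and not all of the 8 genes did. Of these features, 2431 were lower in early against pachytene or later spermatocytes (3742 without thinning). In pachytene or later spermatocytes against round spermatids, 3448 were higher (5598). Among the genes still tested, 1 was lower in spermatocytes against spermatids, beside 4484 of the 11071 features. The count of 1 gene cannot be set beside the 3 found without thinning, because fewer genes were tested. Over the 4 comparisons, 1 value of the genes still tested also lost its call. With the unnamed cluster counted as pachytene or later spermatocytes, 1 of the 8 genes (Chek1, -2.79) was lower in early spermatocytes and Brca1 turned to -0.92 there, uncalled. Of 14672 features, 5152 were lower there. With the unnamed cluster counted as round spermatids, 3 of the 8 genes were higher in round than in elongating or condensing spermatids and 1 was lower. Of 15068 features, 5548 were higher and 4194 lower.

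In round against elongating or condensing spermatids, values near 0 turned sign. With cell numbers as scaling, Atm became 1.22, Topbp1 0.50, Mdc1 0.99 and Trip13 1.27, and without TMM factors 0.74, 0.027, 0.51 and 0.79. Without a gene filter Atm became 0.025 and Trip13 0.062, and with K = 10 they became 0.14 and 0.0042. Thinning gave Atr -0.044, H2afx -0.027 and Trip13 0.20, and counting the unnamed cluster as round spermatids gave Atm 0.33 and Mdc1 0.33. Trip13 in spermatocytes against spermatids became 0.76 with cell numbers and 0.29 without TMM factors. The cause of these changes was not tested.

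With 2 mice, 1 library each, p-values rest on the spread between these animals, which edgeR moderates toward that of all features tested. They therefore draw on more than the 5 residual degrees of freedom of each gene. Atm, Brca1 and Chek2 were counted 136, 214 and 9 times in all cells, and their intervals are wide.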
